A study of Rattus norvegicus with 24 samples.

Results

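The genes described here take up fatty acids into heart muscle cells and break them down by beta oxidation. They are 31 rat genes, chosen by symbol for this role, and were found on the array by matching the accession of each probe to rat RefSeq transcripts. All 31 were measured, by 36 of 30367 probes, and they are 31 of the 12894 genes that entered the tests. Hadha, Cpt1b, Cd36, Acaa1a and Acot2 had 2 probes each, and a gene was represented by its brightest probe.

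Long-chain fatty acids are released from triglyceride by lipases, cross the plasma membrane with the help of transporters, and are activated to acyl-CoA and carried into mitochondria as carnitine esters. Inside, each turn of the spiral oxidises, hydrates, oxidises again and cleaves the chain, which frees acetyl-CoA and passes electrons to the respiratory chain. The adult heart obtains most of its ATP in this way, and many of the genes are targets of the nuclear receptor PPAR alpha.

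RNA from the myocardium of 24 rats was measured on Agilent arrays with a single dye. The rats formed 6 groups of 4, each made up of 2 males and 2 females. In the Jiaji, Neiguan, Yanglingquan and Quchi groups, rats received acupuncture at the acupoint of that name for 7 days and then myocardial ischaemia-reperfusion injury, made by ligating the left anterior descending coronary artery. The IRI group had the injury without acupuncture. Each comparison with IRI uses the same 4 IRI arrays, and each with sham the same 4 sham arrays. The sham group had no ligation, per the labels. Strain, age, reperfusion time and the sampled region of the myocardium are not stated in the labels, and no group is labelled as having received needling at a non-acupoint. The numbered samples were taken as separate animals, and nothing in the labels says how extractions were grouped, so p-values cover the spread among these samples only.

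Levels are log2 intensities relative to the 75th percentile of each array, so that 0 marks that percentile. "Called" means an adjusted p under 0.05 in limma, with Benjamini-Hochberg adjustment over all 12894 genes. Values of second probes came from a separate limma fit of all named probes that passed the background filter, adjusted over those probes. The 31 genes were well above background on all 24 arrays, and 28 of them lay among the brightest 25% of tested genes. Cardiomyocyte markers were present, with 14 of 15 tested and all of those above background on every array. Each group was scanned at a time of its own, apart from replicate 1 of Quchi, which was scanned later, so scan and group cannot be told apart. The IRI and sham arrays shared a scan day. The acupoint arrays were scanned on another day, with replicate 1 of Quchi on a day of its own. Each comparison of an acupoint group with IRI or sham therefore also crosses scan days. Between 76.6% and 80.9% of spots were well above background on the Yanglingquan arrays, the lowest share of any group by its median, against 84.8% to 90.9% on the IRI arrays and 85.5% to 90.2% on the sham arrays.

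Hadha and Hadhb encode the alpha and beta subunits of the mitochondrial trifunctional protein, which carries out the later steps of each turn on long chains. Their start sites face away from each other, and the RefSeq promoter windows (GRCr8, 250 bases before to 50 bases after the start) overlap over 200 bases, chr6:31907551-31907750. The Hadhb window (chr6:31907451-31907750, minus strand) is shown because both genes read from this stretch and followed each other on the arrays, and the Acaa1a window (chr8:127957231-127957530, plus strand) because Acaa1a had the smallest p in the comparison of Yanglingquan with IRI. The start sites used for the Hadhb and Acaa1a windows each lie inside the span that RefSeq lists for the gene over all its transcripts. Capitals mark AGGTCA on either strand, the element bound by many nuclear receptors. The 1 site in the Hadhb window begins at base 293 of 300, after the start site used for that window and outside the overlap with the Hadha window.
Hadhb: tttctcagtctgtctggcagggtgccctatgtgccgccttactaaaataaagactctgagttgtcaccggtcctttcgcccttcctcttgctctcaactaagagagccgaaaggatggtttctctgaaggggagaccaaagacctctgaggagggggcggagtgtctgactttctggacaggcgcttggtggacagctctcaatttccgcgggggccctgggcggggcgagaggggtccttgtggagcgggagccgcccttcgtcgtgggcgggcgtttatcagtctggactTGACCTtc
Acaa1a: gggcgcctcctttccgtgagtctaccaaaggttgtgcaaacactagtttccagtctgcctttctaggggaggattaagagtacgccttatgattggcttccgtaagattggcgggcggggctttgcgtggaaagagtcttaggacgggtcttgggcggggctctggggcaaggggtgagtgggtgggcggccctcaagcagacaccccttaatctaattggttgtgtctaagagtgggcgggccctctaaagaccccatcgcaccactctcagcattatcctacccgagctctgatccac
AGGTCA was found in 6 of the 25 fatty acid gene windows in the table (Acadvl, Echs1, Eci1, Eci2, Hadhb and Slc27a1), a share of 24%, against 16.2% of all 33469 windows. The direct repeat of AGGTCA with 1 base between its copies, which contains 2 of these elements, was in 0 of the 25 windows, against 0.0538% of all windows. These are matches of letters on both strands within 300 bases and do not show binding.

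The injury alone was compared first. In IRI against sham rats, 0 of the 31 genes were called by limma, where 5.75% of all genes were, and 1 had an unadjusted p under 0.05, where 17.8% of all genes did. The median difference of the 31 genes was -0.01 on the log2 scale, beside -0.03 for all genes, and the range ran from -0.34 to 0.21. For 0 of the 31 genes did the IRI and sham arrays stand apart without overlap, where 8.65% of all genes were separated upward and 4.19% downward.

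The lowest value belonged to Lpl, lipoprotein lipase, which frees fatty acids from circulating triglyceride. Lpl read 4.13, 4.37, 4.74 and 4.36 on the IRI arrays, against 4.80, 4.49, 4.84 and 4.82 on the sham arrays, a difference of -0.34 ± 0.13 (SE, limma adjusted p = 0.145). The groups overlapped. Cpt1b, the muscle form of carnitine palmitoyltransferase 1 and the gate for entry into mitochondria, read 5.42, 5.70, 6.07 and 5.88 in IRI rats, against 5.73, 5.49, 5.68 and 5.89 in sham rats. Cpt1a, the form that predominates in liver, read -0.34, 0.35, 0.69 and -0.20 in IRI rats, against -0.10, 0.14, 0.10 and -0.32 in sham rats. Neither form was called, and the arrays of both groups were interleaved. Hadha read 2.42, 2.81, 2.70 and 2.58 in IRI rats, against 2.21, 2.76, 2.67 and 2.48 in sham rats.

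The other probes of Acot2, Cpt1b and Hadha pointed the other way from the brightest in this comparison, at -0.49, -0.38 and -0.46 against 0.20, 0.07 and 0.10, and no probe of these genes was called. Over all 12 comparisons, the 2 probes of a gene differed in sign in 18 of 60 gene-comparison pairs, and in 2 of these, both of Cpt1b, a probe was called. Across the 24 arrays the 2 probes followed each other at r = 0.96 for Acaa1a, 0.89 for Cd36, 0.85 for Hadha, 0.68 for Acot2 and 0.13 for Cpt1b.

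**Figure D1:**
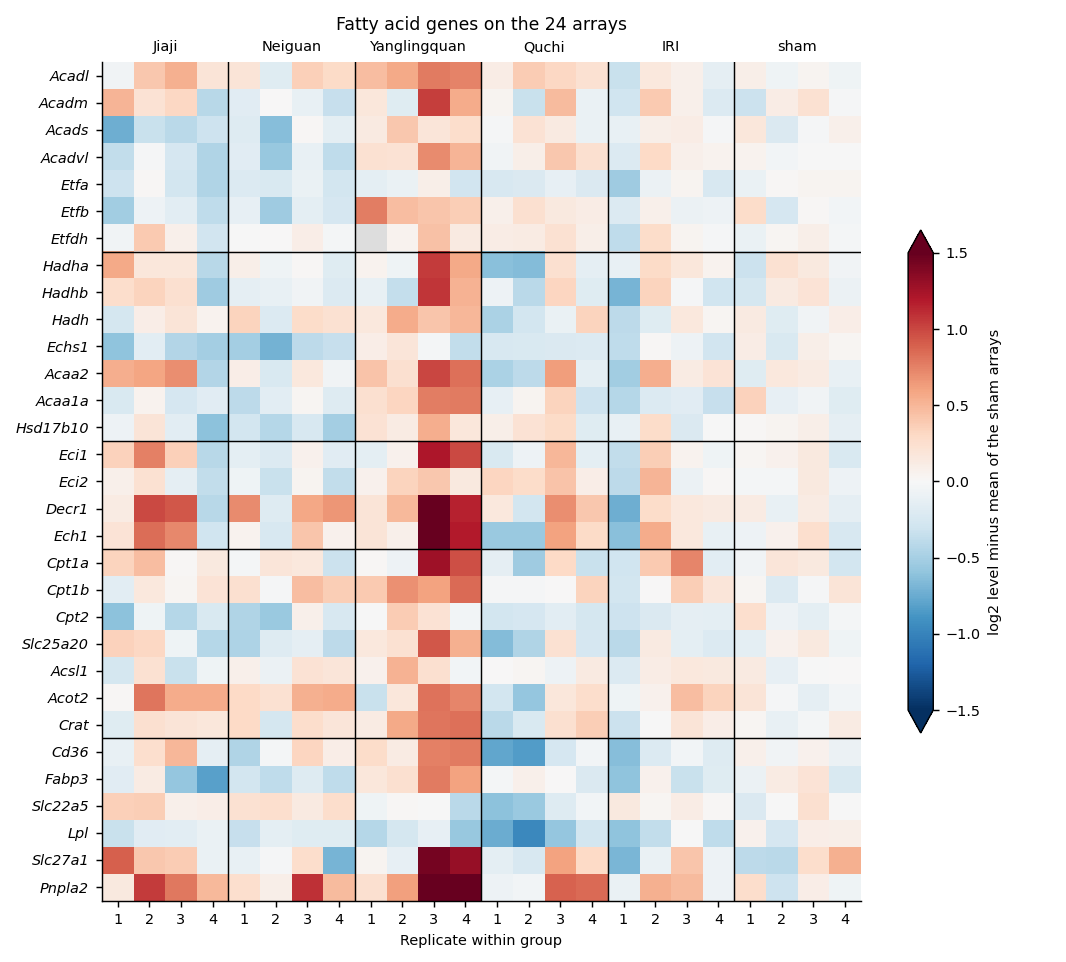
Level of the 31 fatty acid genes (rows, grouped by role) on each of the 24 arrays (columns), as the log2 difference from the mean of the sham arrays. Yanglingquan replicates 3 and 4 have the most red cells, IRI arrays lie near sham except for the bluer replicate 1, and the grey cell is an Etfdh spot marked as an outlier.

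In IRI against sham rats, 609 of all 12894 genes rose and 133 fell. Among the PPAR alpha regulators and targets outside the 31 genes, 2 of 16 rose. Ucp3, a mitochondrial carrier of muscle, rose by 1.82 ± 0.49 (SE, limma adjusted p = 0.0297), and Angptl4, a secreted inhibitor of lipoprotein lipase, rose by 2.11 ± 0.58 (adjusted p = 0.0358). Ppara itself, the receptor, differed by -0.49 ± 0.15 (adjusted p = 0.0608). Bcat2, the mitochondrial branched-chain aminotransferase, fell by 0.59 ± 0.15 (adjusted p = 0.0213), the 1 gene called of 13 in ketone body and branched-chain oxidation. Of the lists for peroxisomal beta oxidation (12 genes), fatty acid synthesis and storage (11), glucose uptake and glycolysis (19), the tricarboxylic acid cycle (21) and the respiratory chain (22), 0 genes were called.

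Yanglingquan rats were set against IRI rats to ask what pretreatment at this acupoint changed in injured hearts. Of the 31 genes 11 rose and 0 fell, where 4.09% of all genes rose and 8.03% fell. The median difference was 0.45 on the log2 scale, beside -0.04 for all genes, and 29 of 31 differences were positive. At an unadjusted p under 0.05 there were 17 of the 31 genes, beside 26.3% of all genes. For 9 of the 31 genes every Yanglingquan array lay above every IRI array, where 5.42% of all genes were separated upward. The members that rose came from each step of the pathway.

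Of the 6 genes of fatty acid supply, 3 rose. Cd36, the main fatty acid translocase of the heart, read 5.65, 5.51, 6.13 and 6.16 on the Yanglingquan arrays, against 4.74, 5.17, 5.34 and 5.19 on the IRI arrays and 5.45, 5.33, 5.44 and 5.29 on the sham arrays. Its Yanglingquan arrays all lay above both other groups, and the difference from IRI was 0.76 ± 0.16 (SE, 1.69-fold, limma adjusted p = 0.00444). The second Cd36 probe gave 0.44 ± 0.18, which was not called (adjusted p = 0.121). Fabp3, the heart fatty acid binding protein, read 5.35, 5.41, 5.95 and 5.78 in Yanglingquan rats, against 4.57, 5.24, 4.84 and 4.99 in IRI rats and 5.08, 5.30, 5.38 and 4.94 in sham rats. It rose 1.64-fold over IRI (0.71 ± 0.18, adjusted p = 0.0122), with no overlap between these 2 groups. Pnpla2, the adipose triglyceride lipase that opens the breakdown of stored fat, read 1.88, 2.27, 3.28 and 3.18 in Yanglingquan rats, against 1.55, 2.18, 2.13 and 1.57 in IRI rats and 1.92, 1.34, 1.75 and 1.58 in sham rats. The 2 female Yanglingquan arrays, replicates 3 and 4, stood well above the 2 male ones, and the difference of 0.80 ± 0.25 had an adjusted p of 0.0448. Slc27a1, a fatty acid transport protein, gave 0.78 ± 0.29 without a call. Lpl read 4.32, 4.47, 4.62 and 4.17 in Yanglingquan rats and differed from IRI by -0.01 ± 0.13, and Slc22a5, the plasma membrane carnitine transporter, differed by -0.19 ± 0.13. These were the 2 members with negative differences, and for Slc22a5 every Yanglingquan array lay below every IRI array, where 10.1% of all genes were separated downward.

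Of 7 genes for activation and the carnitine shuttle, 3 rose. Cpt1b read 6.10, 6.38, 6.30 and 6.54 in Yanglingquan rats, above every IRI and sham array, and rose by 0.56 ± 0.14 over IRI (1.48-fold, limma adjusted p = 0.0129). The second Cpt1b probe, which followed the first poorly, gave 0.34 ± 0.24 and was not called (adjusted p = 0.391). Slc25a20, the carnitine-acylcarnitine carrier of the inner membrane, read 1.53, 1.59, 2.30 and 1.90 in Yanglingquan rats, against 0.96, 1.5, 1.21 and 1.16 in IRI rats and 1.22, 1.43, 1.51 and 1.30 in sham rats. It rose by 0.62 ± 0.17 over IRI (adjusted p = 0.0229). Crat, carnitine acetyltransferase, read 5.21, 5.67, 5.90 and 5.92 in Yanglingquan rats, against 4.77, 5.09, 5.29 and 5.20 in IRI rats and 5.12, 4.98, 5.06 and 5.22 in sham rats. Its lowest Yanglingquan array fell inside the IRI range, and the difference was 0.59 ± 0.17 (adjusted p = 0.0255). Cpt1a read -0.03, -0.13, 1.23 and 0.93 in Yanglingquan rats. The 2 females were the highest of all 24 arrays and the 2 males lay within the IRI range, so that the difference of 0.38 ± 0.24 was not called (adjusted p = 0.345).

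Among the 7 acyl-CoA dehydrogenases and electron transfer proteins, 2 rose. Acadl, long-chain acyl-CoA dehydrogenase, read 7.12, 7.21, 7.43 and 7.39 in Yanglingquan rats, against 6.32, 6.81, 6.73 and 6.52 in IRI rats and 6.74, 6.58, 6.69 and 6.59 in sham rats. All Yanglingquan arrays lay above both other groups, with 0.70 ± 0.13 over IRI (1.62-fold, limma adjusted p = 0.00199). Etfb, a subunit of the flavoprotein that takes electrons from these dehydrogenases, read 6.62, 6.31, 6.26 and 6.22 in Yanglingquan rats, against 5.65, 5.93, 5.77 and 5.77 in IRI rats and 6.13, 5.60, 5.87 and 5.81 in sham rats. It rose by 0.58 ± 0.13 (adjusted p = 0.00726), and here a male array was the highest. Acadm, medium-chain acyl-CoA dehydrogenase, read 4.08, 3.74, 4.96 and 4.47 in Yanglingquan rats, against 3.62, 4.31, 3.99 and 3.71 in IRI rats, which overlapped (0.40 ± 0.20, adjusted p = 0.21).

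Of the 7 genes for hydration, second oxidation and thiolysis, Acaa1a and Hadh rose. Acaa1a, the 3-ketoacyl-CoA thiolase of peroxisomes, read 2.19, 2.27, 2.72 and 2.73 in Yanglingquan rats, against 1.52, 1.75, 1.78 and 1.60 in IRI rats and 2.29, 1.83, 1.90 and 1.78 in sham rats. Every Yanglingquan array lay above every IRI array, and the difference of 0.81 ± 0.15 (1.76-fold) had the smallest p of the 31 genes (limma adjusted p = 0.00163). The second Acaa1a probe gave 0.67 ± 0.18 (adjusted p = 0.0176). Hadh, the short-chain hydroxyacyl-CoA dehydrogenase, gave 0.51 ± 0.16 (adjusted p = 0.0465). Hadha read 2.59, 2.47, 3.58 and 3.1 in Yanglingquan rats, again with both females above both males, and was not called (0.31 ± 0.21, adjusted p = 0.381). Of the 4 auxiliary enzymes of unsaturated chains, Decr1, 2,4-dienoyl-CoA reductase, read 4.70, 5.0, 6.08 and 5.66 in Yanglingquan rats, against 3.77, 4.78, 4.67 and 4.65 in IRI rats and 4.64, 4.4, 4.63 and 4.38 in sham rats. The lowest Yanglingquan array lay below 1 IRI array, and the difference of 0.89 ± 0.28 had an adjusted p of 0.0407. Ech1, Eci1 and Eci2, isomerases that move double bonds, differed by 0.76 ± 0.26, 0.53 ± 0.23 and 0.22 ± 0.16 without a call. The other uncalled members, from Etfa (0.09), a subunit of the same electron transfer flavoprotein as Etfb, to Acaa2 (0.54), the mitochondrial thiolase, were all above 0.

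**Figure D2:**
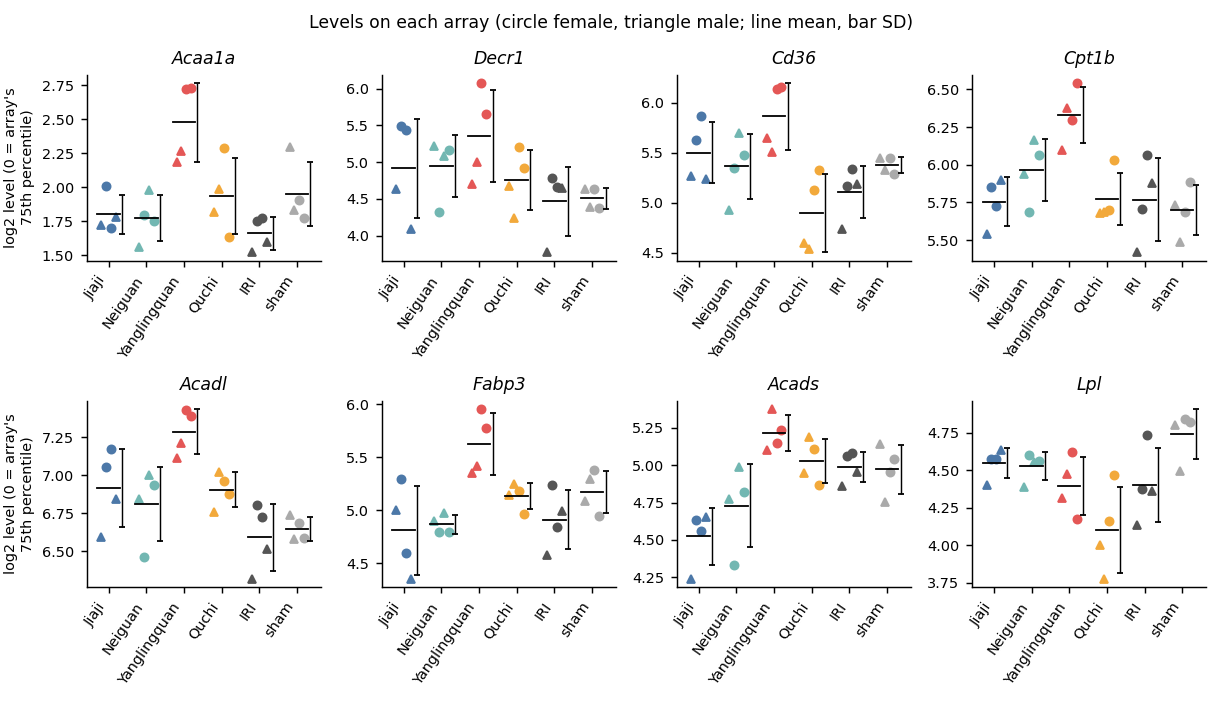
Log2 level of 8 fatty acid genes on each array, by group, with circles for females, triangles for males, a line at the mean and a bar of 1 SD (n = 4). For Cd36, Cpt1b and Acadl every Yanglingquan array lies above every IRI and sham array, Acads is lowest in Jiaji rats and Lpl is lowest in Quchi rats.

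The size of these differences depended on how arrays were scaled. Bright genes as a whole also lay higher on the Yanglingquan arrays and faint genes lower, and the part of this in the effect of scaling was not tested. The median Yanglingquan minus IRI difference was 0.11 in the brightest 25% of all tested genes and -0.37 in the faintest 25%. The 100 genes nearest in brightness to each of the 31 genes had a median of 0.19, and 24 of the 31 genes lay above their neighbours. Over all 31 genes the median difference from the neighbours was 0.21. With quantile normalization the median of the 31 genes was 0.23 and 25 were positive. With cyclic loess the median was 0.25 and 24 were positive. Acaa1a was the 1 gene called under either, at 0.77 with an adjusted p of 0.00407 after quantile normalization and 0.75 with 0.00466 after cyclic loess. The other 10 genes that rose kept positive differences under both scalings without a call, with Slc25a20 nearest to it (adjusted p = 0.057 and 0.0511). Acads, Echs1, Acot2, Acsl1 and Etfa, none of which was called, turned negative under at least 1 of these scalings. Leaving out 1 array at a time, the count of 11 became 5 without IRI replicate 1, 7 without IRI replicate 2, 6 without Yanglingquan replicate 3 and 7 without Yanglingquan replicate 4. Acaa1a was called under all 37 alternative settings.

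**Figure D3:**
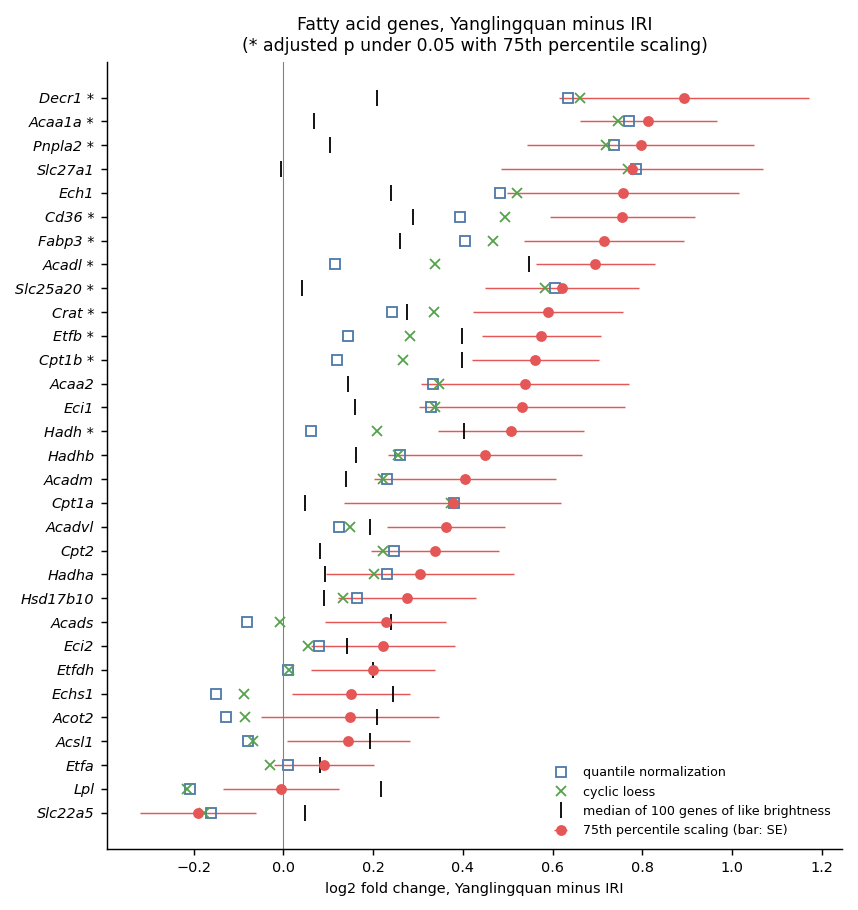
Log2 difference of each of the 31 genes between Yanglingquan and IRI rats under 3 scalings of the arrays, with the median of the 100 genes of like brightness as a tick. The 3 symbols lie close together for Acaa1a, Slc25a20 and Slc27a1 and far apart for Acadl, Cpt1b and Etfb.

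**Figure D4:**
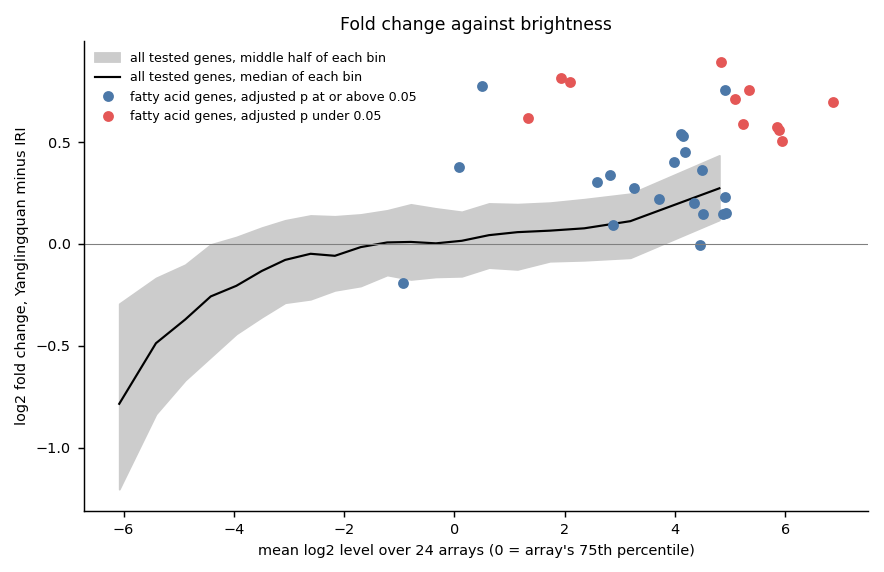
Log2 difference between Yanglingquan and IRI rats (vertical) against mean log2 level (horizontal), for all tested genes as the median and quartile range of 20 brightness bins and for the 31 fatty acid genes as points. The line climbs with brightness and ends at a level of 4.81, where it reaches 0.27. All 11 called genes lie higher than that end. Of them only Acaa1a, Pnpla2 and Slc25a20 fall within the span of the line, and the others are brighter than its end.

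Other pathways were higher on the Yanglingquan arrays too, where 4.09% of all genes rose over IRI. Of 22 respiratory chain genes 13 rose over IRI, with a median of 0.40, and of 14 cardiomyocyte markers 10 rose, with a median of 0.56. After quantile normalization these medians were -0.04 and 0.02, and 0 genes of both lists were called. After cyclic loess they were 0.11 and 0.19, and 4 respiratory chain genes and 5 cardiomyocyte markers were called, all higher. The summed linear level of the cardiomyocyte markers ran from 1887 to 2640 on the Yanglingquan arrays, against 1359 to 1521 on the IRI arrays, without overlap. The Jiaji arrays (1548 to 1885) and the Neiguan arrays (1554 to 1915) also lay above every IRI array. The Quchi arrays (1450 to 2215) overlapped the IRI arrays. The part of this summed level in the fatty acid result was not tested. In bulk tissue fewer cells of a type and less RNA per cell cannot be told apart. Outside the 31 genes, Dgat2, which completes triglyceride synthesis, rose by 0.69 ± 0.20 (limma adjusted p = 0.0259, and 0.04 after quantile normalization). Of the 16 PPAR alpha regulators and targets 1 rose, Mlycd, malonyl-CoA decarboxylase, which removes the inhibitor of carnitine palmitoyltransferase 1 (0.51 ± 0.15, adjusted p = 0.028, and 0.288 after quantile normalization).

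Against sham rats the Yanglingquan group had 8 of 31 genes higher and 0 lower, where 5.79% of all genes rose. These 8 were Acadl, Cpt1b, Pnpla2, Etfb, Crat, Acaa1a, Decr1 and Acadvl, very-long-chain acyl-CoA dehydrogenase. The second probe of Cpt1b gave -0.03 ± 0.24, the opposite sign (limma adjusted p = 0.95). That of Acaa1a gave 0.45 ± 0.18 without a call (adjusted p = 0.0991). Pnpla2 had the largest difference, 1.0 ± 0.25 (2.01-fold, limma adjusted p = 0.0136). For 10 genes every Yanglingquan array lay above every sham array and for 0 below, where 7.49% and 8.98% of all genes were separated in these directions. The comparison shares its Yanglingquan arrays with the one against IRI. After quantile normalization Pnpla2 was the 1 gene higher (0.94, adjusted p = 0.0213), while Lpl (-0.55, adjusted p = 0.0174) and Echs1 (-0.33, adjusted p = 0.0458) were lower. Without sham replicate 2 the count was 3, and it was 4 without sham replicate 3, sham replicate 4, Yanglingquan replicate 3 or Yanglingquan replicate 4.

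The Yanglingquan group was also set against each other acupoint, comparisons that again share its 4 arrays. Against Jiaji rats 11 genes were higher, where 9.46% of all genes were. Against Neiguan rats 11 were higher, where 7.75% were, and against Quchi rats 10, where 4.18% were. The fatty acid medians were 0.37, 0.48 and 0.45, and 0 genes were lower in these comparisons. Neighbours of like brightness had medians of 0.29, 0.21 and 0.04. The median difference of the 31 genes from their neighbours was 0.08 against Jiaji, 0.26 against Neiguan and 0.38 against Quchi. Etfb had the smallest p against Jiaji (0.79 ± 0.13, limma adjusted p = 0.000264) and against Neiguan (0.76 ± 0.13, 0.000798), and stayed called after quantile normalization in both, together with Acaa1a and Acadvl. Against Quchi, Cd36 led with 0.97 ± 0.16 (adjusted p = 0.000449), and Cd36, Slc25a20, Cpt1b and Acaa1a stayed called after quantile normalization. Against Jiaji, Acadl was called at 0.37 but turned to -0.05 after quantile normalization. The counts moved most without Jiaji replicate 1 (7) or Yanglingquan replicate 2 (7) against Jiaji, and without Neiguan replicate 2 (6) or Neiguan replicate 3 (19) against Neiguan. Against Quchi the count was 3 without Yanglingquan replicate 3, 4 without Yanglingquan replicate 4, 5 without Quchi replicate 1 and 4 without Quchi replicate 2.

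Few of the 31 genes were called in Jiaji and Neiguan rats. Against IRI, 24 of the 31 genes lay above their neighbours of like brightness in Jiaji rats, as many as in Yanglingquan rats. The median difference from the neighbours was 0.18 in Jiaji rats. In Neiguan rats 17 genes lay above them, with a median of 0.06, and in Quchi rats 8, with a median of -0.13. Against IRI, 1 of 31 genes was called in Jiaji rats, where 10.2% of all genes were called and 1.8% were lower, and 0 in Neiguan rats, where 5.63% were (3 of 31 at an unadjusted p under 0.05 by limma, beside 19.7% of all genes). The gene in Jiaji rats was Acads, short-chain acyl-CoA dehydrogenase. It read 4.24, 4.63, 4.56 and 4.66 in Jiaji rats, against 4.86, 5.06, 5.08 and 4.95 in IRI rats and 5.14, 4.75, 4.95 and 5.04 in sham rats. All Jiaji arrays lay below both other groups, where 4.34% of all genes were separated downward from IRI and 9.24% from sham. Acads fell by 0.46 ± 0.14 against IRI (adjusted p = 0.0319) and by 0.45 ± 0.14 against sham (0.0199). The call against IRI was lost without IRI replicate 2, 3 or 4 or without Jiaji replicate 1 or 3, where the count of called genes was 0, with an adjusted p of up to 0.122.

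Against sham, 2 of 31 genes were lower in Jiaji rats, where 6.55% of all genes were, and 1 of 31 in Neiguan rats, where 7.39% were. The gene common to both was Echs1, the enoyl-CoA hydratase of short chains. Echs1 read 4.54, 4.99, 4.71 and 4.63 in Jiaji rats and 4.63, 4.44, 4.75 and 4.80 in Neiguan rats, against 5.25, 4.92, 5.23 and 5.17 in sham rats. It was lower by 0.49 in Neiguan rats (-0.49 ± 0.13, limma adjusted p = 0.0129), with every Neiguan array below every sham array, where 12.4% of all genes were separated downward, and was called there in all 37 alternatives. In Jiaji rats the difference was -0.42 ± 0.13 (adjusted p = 0.0237), and 1 array overlapped sham. The Jiaji count against sham was unstable. It was 5 without Jiaji replicate 2, 0 without sham replicate 4 or Jiaji replicate 1, and 1 without sham replicate 3, Jiaji replicate 3 or Jiaji replicate 4. Without sham replicate 1 it was 2, both of them higher. The Neiguan count was 2 without Neiguan replicate 2.

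In the Jiaji and Neiguan groups the best-known members were not called against IRI. Cpt1b read 5.54, 5.85, 5.73 and 5.90 in Jiaji rats and 5.94, 5.69, 6.16 and 6.06 in Neiguan rats. Cd36 read 5.26, 5.63, 5.87 and 5.24 in Jiaji rats (0.39 ± 0.16 over IRI, limma adjusted p = 0.137) and 4.93, 5.35, 5.70 and 5.48 in Neiguan rats (0.26 ± 0.16, adjusted p = 0.389). Their arrays overlapped those of IRI. Fabp3 read 5.0, 5.29, 4.59 and 4.35 in Jiaji rats, with the largest SD of the 6 groups, and 4.90, 4.79, 4.98 and 4.79 in Neiguan rats. Lpl read 4.4, 4.57, 4.58 and 4.64 in Jiaji rats and 4.39, 4.60, 4.56 and 4.56 in Neiguan rats.

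In Quchi against sham rats 2 of 31 genes were lower, where 9.26% of all genes were, and 0 were higher, where 11.8% were. The count is no larger than the share of all genes, and the 2 genes, Lpl and Cd36, are described singly. Lpl read 4.00, 3.78, 4.16 and 4.47 in Quchi rats, below every sham array, and fell by 0.64 ± 0.13 (0.64-fold, limma adjusted p = 0.00184). It was called in all 37 alternatives, and each of the 100 genes nearest in brightness had a higher value. Cd36 read 4.59, 4.54, 5.12 and 5.33 in Quchi rats, with 1 array inside the sham range, and fell by 0.48 ± 0.16 (adjusted p = 0.0386). Its second probe fell by 0.70 ± 0.18 (adjusted p = 0.0096). The Cd36 call was lost in 6 of 24 runs without 1 array, with an adjusted p of up to 0.128, namely without sham replicate 1, 2 or 3 or Quchi replicate 1, 2 or 3. In 5 of these 6 runs the count of called genes was 1, and without sham replicate 1 it was 2. Quchi replicates 1 and 2, both male, were the lowest arrays for Cd36 and Lpl, and replicate 1 was the array scanned later.

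The fainter probes of 3 genes fell in Quchi against sham rats while their brightest probes did not. The second probe of Hadha fell by 1.04 ± 0.24 (limma adjusted p = 0.00514), that of Acot2, a mitochondrial acyl-CoA thioesterase, by 1.41 ± 0.29 (0.00224) and that of Cpt1b by 0.78 ± 0.24 (0.0254). The brightest Cpt1b probe gave 0.08, the opposite sign. Neighbouring pathways had calls in both directions in Quchi against sham rats, where 11.8% of all genes were higher and 9.26% lower. Of 22 respiratory chain genes 4 were higher and 0 lower, and of 21 tricarboxylic acid cycle genes 3 and 0. Of 19 genes of glucose uptake and glycolysis these counts were 3 and 2. They were 1 and 1 of 12 in peroxisomal beta oxidation, and 0 and 2 of 13 in ketone body and branched-chain oxidation. After quantile normalization the higher calls were 0, 0, 1, 1 and 0, where 1189 of all 12894 genes were higher. Eno3, the muscle enolase, was higher (0.93 ± 0.21, limma adjusted p = 0.00392). Among the lower genes were Bcat2 (-0.82 ± 0.15, adjusted p = 0.000829) and Hk2, hexokinase 2 (-1.07 ± 0.27, 0.00848). Fabp4, a fatty acid binding protein of adipocytes and capillary endothelium, was lower by 0.56 (-0.56 ± 0.18, adjusted p = 0.0323). The adipocyte markers as a list did not fall. Of 9 tested, 1 was called higher and 1 lower, and 6 had positive differences, with a median of 0.15. Tie1 was the 1 endothelial marker of 8 that was called, and it was lower (-0.79 ± 0.19, adjusted p = 0.00528). The summed level of the endothelial markers ran from 39.7 to 47.6 in Quchi rats, against 46 to 58.8 in sham rats, and its part in the Lpl and Cd36 result was not tested. Of 5 liver markers 2 were higher in Quchi rats, Alb, albumin (4.56 ± 1.17, adjusted p = 0.00924), and Fgb, a fibrinogen chain (2.91 ± 0.69, 0.00544). The summed level of the liver list ran from 7.89 to 12.6 in Quchi rats, against 6.47 to 10.8 in sham rats, and its part was not tested either. Against IRI, 0 of the 31 genes were called in Quchi rats by limma, where 3.44% of all genes were, and 3 had an unadjusted p under 0.05, where 19% did. Lpl differed from IRI by -0.30 ± 0.13 (adjusted p = 0.206, and 0.0407 after quantile normalization). The count was 1 without Quchi replicate 4 or without Yanglingquan replicate 4.

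Over all 6 groups together, 15 of 31 genes were called by limma's F test, a share near the 45.8% of all genes that were. The 31 genes did not form 1 block. Deviations from the group means were correlated across the 24 arrays at a median r of 0.44 over 465 pairs, and 422 pairs were positive. These arrays share their scaling and their animals, so the values are descriptive. Acadm and Hadhb had the highest pair value at r = 0.96, Hadha and Hadhb reached 0.88, and the lowest pair was Acadm with Acads at -0.31. Ech1 (0.93), Acadvl (0.91), Decr1 (0.89) and Eci1 (0.87) followed the median of the other members most closely. Slc22a5 (0.08), Etfb (0.23), Acsl1, the long-chain acyl-CoA synthetase (0.26), Echs1 (0.26) and Acads (0.29) followed it least.

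**Figure D5:**
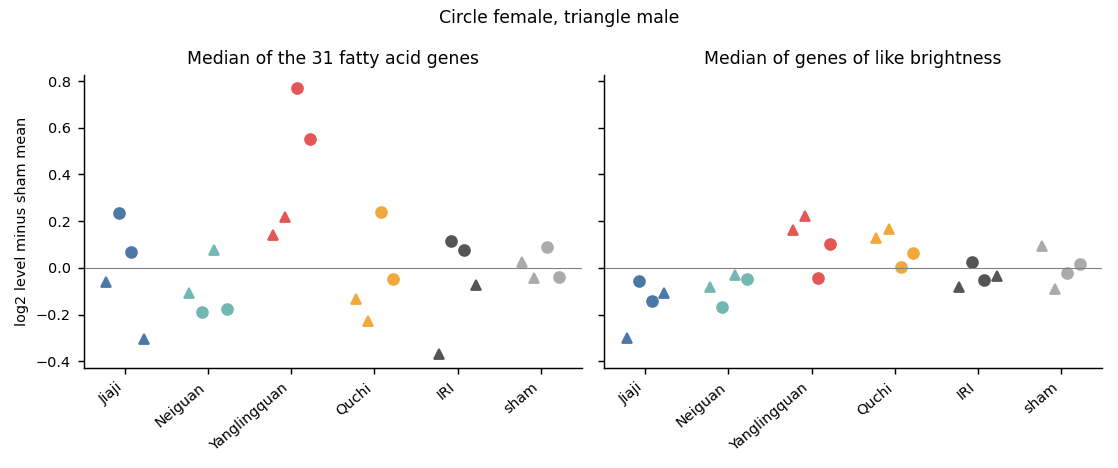
Median log2 difference from the sham mean on each array, for the 31 fatty acid genes (left) and for 1658 genes of like brightness (right), with circles for females and triangles for males. The female Yanglingquan arrays stand at 0.77 and 0.55 on the left and at -0.04 and 0.10 on the right, and IRI replicate 1 is lowest on the left at -0.37.

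The median of the 31 genes relative to sham showed the same split by array. It was 0.14 and 0.22 in the male and 0.77 and 0.55 in the female Yanglingquan rats. The other groups ran from -0.30 to 0.23 in Jiaji, -0.19 to 0.08 in Neiguan, -0.23 to 0.24 in Quchi, -0.37 to 0.11 in IRI and -0.04 to 0.09 in sham rats. Genes of like brightness lay at 0.16 and 0.22 in the male and at -0.04 and 0.10 in the female Yanglingquan rats, so the fatty acid genes stood above them on the female arrays and level with them on the male arrays.

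Female and male rats were therefore compared, a comparison added after the values had been seen. Over all 24 arrays with group in the model, 0 of the 31 genes were called by limma, where 0.209% of all genes were, but 16 had an unadjusted p under 0.05, where 12.5% of all genes did. The differences, female minus male, were positive for 27 of 31 genes with a median of 0.17, and after quantile normalization for 30 of 31 with a median of 0.22. Ech1 was highest at 0.58 ± 0.15 (adjusted p = 0.106), followed by Slc27a1 (0.49 ± 0.17), Pnpla2 (0.49 ± 0.15), Decr1 (0.47 ± 0.16) and Hadhb (0.41 ± 0.13). Whether the Yanglingquan difference from IRI was larger in females was tested as an interaction, with 2 rats per sex and group. It was called for 0 of 31 genes and 0.0% of all genes, and 2 of 31 had an unadjusted p under 0.05, beside 7.72% of all genes. Whether IRI differed from sham by sex was called likewise for 0 of 31 genes and 0.0% of all genes, with 1 of 31, Cpt1a, at an unadjusted p under 0.05, beside 4.9% of all genes. Cpt1a was higher by 0.63 in IRI than in sham females and lower by 0.29 in IRI than in sham males (adjusted p of the interaction 0.891).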

How the data were processed

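Intensity values were deposited per array as background-subtracted and spatially detrended by Agilent Feature Extraction (11.0.1.1 per the file headers, 10.7.3.1 per the submitters' processing notes). Spot flags (other values) were set by the same software, per the file headers. A deposited table of log2 values, median 7.21 on each array, served as an alternative. Its columns correlated at r = 0.997 to 1.00 with the log2 intensity of the matching array, and no header or label names its normalization. Spots flagged as non-uniform or population outliers (8733) were dropped, spots of a probe were averaged, and log2 intensity was scaled by subtracting each array's 75th percentile. One Etfdh value was lost in this way, and the fit drops it. No spot was saturated. Probes were named through RefSeq transcripts (59.3% of 30367) and kept where 1 group or more had the probe well above background on all its arrays.

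limma 3.58.1 in R 4.3.3 fitted 6 groups and sex to 24 arrays (17 residual degrees of freedom), with two-sided p-values. The number of arrays limits the precision. Fits were tested on simulated data. The members, the gene lists and the tests were chosen with earlier results of these data known. Values on each array are printed for members called in IRI against sham or in an acupoint group against IRI (at most 10 a comparison) and for Cpt1b, Cpt1a, Cd36, Acadl, Acadm, Hadha, Fabp3 and Lpl, and up to 3 genes of smallest p are named per other list. Alternatives changed the scaling, background correction, filter, probe rule, sex term, blocks and arrays. Replicate numbers were not treated as pairs in the main fit. Of 60 same-numbered pairs, 24 deviated together at r over 0.1. The median r was 0.077 for same-numbered pairs and -0.016 for other pairs. Sex was not removed in this check and replicate 1 was male in every group, so it cannot settle whether the numbers pair samples.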

Additional observations from a re-analysis of the deposited data

Results flagged for a closer look

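For 8 of 185 sets of 4 arrays, 1 array stood far from the other 3 of its group by Dixon's test, which chance alone does for about 5% of groups. In Jiaji replicate 4, Hadhb read 3.66 (the others 4.43 to 4.52) and Acaa2 read 3.52 (the others 4.5 to 4.65). In IRI replicate 1, Decr1 read 3.77 (the others 4.65 to 4.78) and Acsl1 read 4.25 (the others 4.58 to 4.62). Decr1 read 4.32 in Neiguan replicate 2 (the others 5.09 to 5.22), and Cpt1b read 6.03 in Quchi replicate 4 (the others 5.68 to 5.70). In sham rats, Etfa read 2.95 in replicate 1 (the others 3.07 to 3.09) and Lpl read 4.49 in replicate 2 (the others 4.80 to 4.84).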

How the results depend on the processing

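All counts here are of the 31 genes called by limma, and the cause of each change was not tested. With quantile normalization the counts were 1 for Yanglingquan against IRI, 3 against sham (1 higher and 2 lower, a turned balance), 4 against Jiaji, 5 against Neiguan and 5 against Quchi. They were 2 for Jiaji and 1 each for Neiguan and Quchi against IRI, and 4, 3 and 5 for Jiaji, Neiguan and Quchi against sham. The authors' deposited values gave these same numbers except 2 for Neiguan against sham, with the same turned balance. Cyclic loess gave 1 for Yanglingquan against IRI, 2 against sham, 5 against Jiaji and 4 against Neiguan, and 2 for Neiguan against sham. Median scaling, which moved the median of all genes for Yanglingquan against Jiaji to 0.30, gave 27 there, 23 against Neiguan, 2 for Jiaji against IRI, 10 for Jiaji and 5 for Neiguan against sham, and 27 in the F test. Under it 4649 of all 12894 genes were higher for Yanglingquan against Jiaji. For Jiaji against sham 5223 of all genes were lower, as were all 10 of the fatty acid genes called. The mean of probes gave 4 for Quchi against sham, no sex term 1. Normexp background gave 1 for Jiaji against sham and 6 for Yanglingquan against Quchi. Fitting only the 2 groups compared gave 0 for Jiaji against IRI and 0 against sham, 2 for Neiguan, 2 for Yanglingquan and 1 for Quchi against sham, and 6 for Yanglingquan against Jiaji and 6 against Neiguan. Scan time as a random block gave 17 for Yanglingquan against IRI, 18 against sham, 23 against Neiguan and 16 against Quchi. It gave 1 for IRI against sham, and 4, 1 and 1 for Jiaji, Neiguan and Quchi against IRI. Against sham it gave 9 for Jiaji and 4 for Neiguan. Calls over all genes grew with this block too. For Yanglingquan against IRI they went from 527 to 1161 higher and from 1036 to 1882 lower, of 12894. The fitted correlation within a scan time was negative, at -0.0998. Each scan time holds arrays of 1 group, so that block cannot separate scan from group.

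Leaving out 1 array at a time, the counts ran from 5 to 12 for Yanglingquan against IRI, 3 to 9 against sham, 7 to 12 against Jiaji, 6 to 19 against Neiguan and 3 to 12 against Quchi. They ran from 0 to 1 for Jiaji, 0 to 0 for Neiguan and 0 to 1 for Quchi against IRI, 0 to 5 for Jiaji, 1 to 2 for Neiguan and 1 to 3 for Quchi against sham, and 0 to 0 for IRI against sham. Without sham replicate 1 the Jiaji count against sham was 2, both higher. Acadl in Yanglingquan against Jiaji turned to -0.0500 with quantile normalization, -0.0012 with cyclic loess and -0.0487 with the authors' values.

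The replicate block used the replicate number, and whether that number pairs samples is not settled. Same-numbered arrays had r of -0.386 to 0.372, and 9 of 24 arrays were closest to their own number. With this block the counts were 11 for Yanglingquan against IRI, 7 against sham, 11 against Jiaji, 14 against Neiguan and 10 against Quchi. The count for IRI against sham was 0.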
